A study of Mus musculus with 12 samples.

Results

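The genes described here encode 9 structural proteins of the myelin made by oligodendrocytes: Mbp, Mobp, Mal, Cldn11, Mag, Mog, Cnp, Ermn and Opalin. They were chosen by name, as rows of the array table that carry 1 of these symbols alone. Each had exactly 1 such row, so all 9 were measured among the 22180 genes tested. They were followed in the cerebellum of mice that lack Ciz1, a nuclear matrix protein with a role in initiating DNA replication, and of control mice, with 1 Affymetrix whole-transcript array per mouse and 3 mice for each sex and genotype. The groups are called WT_male, WT_female, KO_male and KO_female, and a replicate number only names an array within its group. The knockouts are labelled Ciz1-/-, and the series title calls the deficiency germline. The controls are wild type by source name and Ciz1+/+ by the extraction text, but Ciz1+/- in their genotype field, and nothing in the labels settles which holds. By the extraction text the mice were 10 months old, and by the series design 6 to 10 months. The strain and the way the allele was made are not stated in the labels.

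Myelin is the stacked membrane that oligodendrocytes wrap around axons so that impulses travel fast. Most of the sheath is compact, with its cytoplasm squeezed out by basic proteins such as Mbp, while its edges and the layer next to the axon keep cytoplasm and carry other proteins. In the cerebellum this myelin lies mainly in the white matter and along the axons that enter and leave the cortex. Oligodendrocytes make these proteins together late in their maturation, under transcription factors that include Sox10 and Myrf.

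Of the 9 genes, 8 matched an entry in the RefSeq promoter table of build GRCm38.p6, and Mbp did not. The 250 bases before the annotated start are shown for 4 genes that the results below turn on. Opalin (chr19:41077114-41077363, minus strand), Mal (chr2:127656696-127656945, minus strand) and Cldn11 (chr3:31149670-31149919, plus strand) had the 3 smallest p-values among the 9 between knockout and wild type, and Mobp (chr9:120149492-120149741, plus strand) was the 1 gene that was not lower in KO_male. Sequences read 5′ to 3′ on the strand of the gene. Capitals mark matches on either strand to the SOX motifs ACAAAG and ACAATG, the MYRF motifs CTGGCAC and CTGGTAC and the E-box motifs CAGCTG and CATCTG, and no match overlapped another in these 4 windows.
Opalin: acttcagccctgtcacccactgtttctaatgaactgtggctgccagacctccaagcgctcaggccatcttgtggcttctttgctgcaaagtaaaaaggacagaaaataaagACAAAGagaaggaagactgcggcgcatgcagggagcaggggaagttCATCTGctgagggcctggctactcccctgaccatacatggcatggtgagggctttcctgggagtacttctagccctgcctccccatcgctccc
Mal: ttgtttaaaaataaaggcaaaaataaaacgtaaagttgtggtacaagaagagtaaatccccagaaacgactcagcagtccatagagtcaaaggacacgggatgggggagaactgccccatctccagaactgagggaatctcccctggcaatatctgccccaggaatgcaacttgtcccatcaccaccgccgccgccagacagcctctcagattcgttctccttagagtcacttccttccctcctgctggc
Cldn11: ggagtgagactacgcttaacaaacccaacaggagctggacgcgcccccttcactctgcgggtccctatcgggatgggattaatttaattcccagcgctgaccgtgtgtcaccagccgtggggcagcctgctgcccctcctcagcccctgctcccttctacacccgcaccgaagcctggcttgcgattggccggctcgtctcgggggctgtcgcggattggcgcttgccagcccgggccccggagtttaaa
Mobp: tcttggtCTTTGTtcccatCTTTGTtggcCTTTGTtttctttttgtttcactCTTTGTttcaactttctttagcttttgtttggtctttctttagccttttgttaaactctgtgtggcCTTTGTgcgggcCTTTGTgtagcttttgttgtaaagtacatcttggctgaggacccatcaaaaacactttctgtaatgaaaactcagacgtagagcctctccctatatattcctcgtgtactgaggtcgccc

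Opalin held 1 ACAAAG, with its first base at -139 from the start, and 1 CATCTG at -93. Mobp held 6 matches to ACAAAG, all on the reverse strand, between -243 and -120. Mal and Cldn11 held none of the 6 motifs in this window. The 8 genes with an entry had 10 windows, as Mag had several, some of which overlap and share sites. A gene is listed if any of its windows held the motif. ACAAAG stood before Opalin, Mobp, Mag and Cnp (5 of the 10 windows), and in 16.5% of all 32851 windows of this length in the table. CTGGCAC stood before Mag and Cnp (3 of the 10 windows) and in 4.19% of all windows. CTGGTAC stood before Mog (1.83% of all windows), ACAATG before Ermn (10.7%), CATCTG before Opalin (14.4%) and CAGCTG before none of the 8 (13%). These are matches of letters, not measured binding sites.

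Values are log2 of the deposited intensity, so a difference of -1 is a halving. Differences are knockout minus wild type unless another order is given. Tests are limma's, two-sided, with a spread shared over the 12 arrays and p-values adjusted by the Benjamini-Hochberg method over all 22180 genes. A gene is called at an adjusted p under 0.05. In whole tissue, fewer oligodendrocytes and less of each RNA per oligodendrocyte cannot be told apart.

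All 9 genes were lower in the knockout on average over both sexes, as were 50.4% of all genes, and 1 of them, Opalin, passed the test. The differences of the 9 ran from -0.45 to -0.12 with a median of -0.28, against a median of -0.00072 over all genes. In geometric means, which are log2 means turned back to the linear scale, the knockout was at 73.2% to 92% of wild type. Called genes made up 0.0225% of all genes tested in this comparison. At an unadjusted p under 0.05, all 9 were lower, where 4.87% of all genes were lower and 4.38% higher. For 0 of the 9 did all 6 knockout arrays lie below all 6 wild-type arrays, which held for 0.23% of all genes. The 9 share their arrays and their cell type, so they are not 9 independent tests. As a check of the labels, Ciz1 was measured at 7.13 ± 0.18 (SD, n = 6) in the 6 knockout arrays against 8.76 ± 0.08 (SD, n = 6) in the other 6. This bears out the split into knockouts and controls but does not settle the genotype of the controls. Whether its probes cover the altered sequence is unknown.

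The differences were larger in females for 8 of the 9 genes, all but Ermn, although the test of the sexes against each other, given after the single genes, called none. In females all 9 genes were lower (49.4% of all genes were), with a median of -0.38, and the KO_female geometric mean was 60.8% to 86.5% of WT_female. There 1 of 9 was called, against 0.0225% of all genes, and 8 of 9 were lower at an unadjusted p under 0.05, against 3.98%. In males 8 of 9 were lower (51.9% of all genes were), with a median of -0.14, and the KO_male geometric mean was 79.1% to 101% of WT_male. None of the 9 was called in males by limma, against 0.0225% of all genes, and 0 of 9 reached an unadjusted p under 0.05, against 2.8%. Every KO_female array lay below every WT_female array for all 9 genes, a separation that 7.41% of all genes showed. Every KO_male array lay below every WT_male array for 1 of 9, Opalin, against 5.64% of all genes. KO_female had the lowest mean of the 4 groups for all 9 genes.

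**Figure D1:**
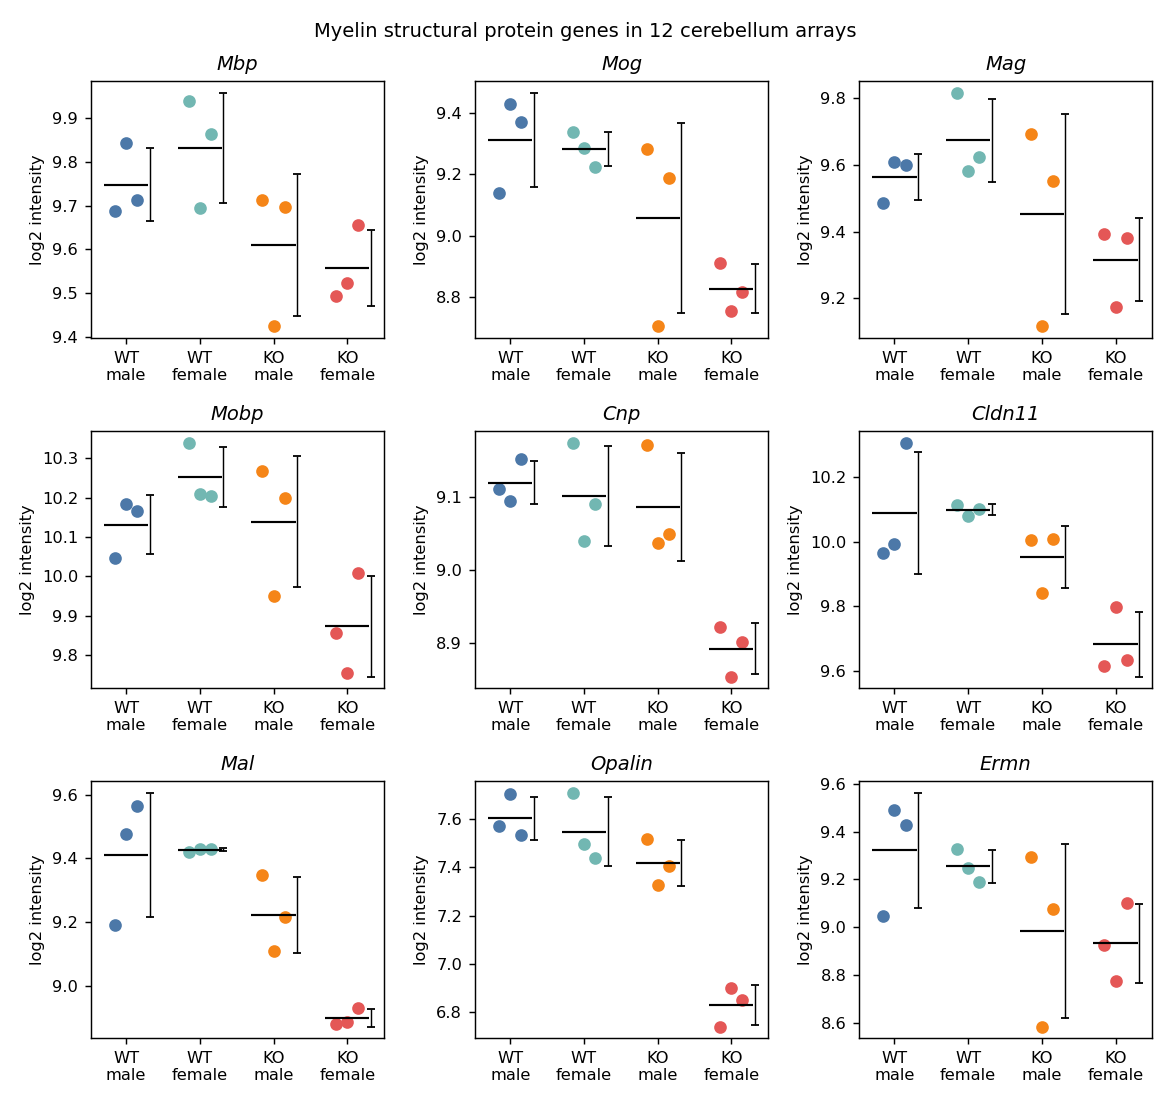
Log2 intensity (vertical axes, which do not start at 0) of the 9 genes in the 4 groups (horizontal axes); points are single arrays, lines the mean of 3 arrays and bars the SD. The 3 KO_female arrays lay below the 3 WT_female arrays in all 9 panels, and replicate 2 of KO_male was the lowest KO_male array in all 9.

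Opalin is a small glycosylated membrane protein of oligodendrocytes and of the cytoplasm-holding loops of central myelin. Opalin had log2 intensities of 7.57, 7.70 and 7.53 in WT_male and 7.71, 7.50 and 7.44 in WT_female, against 7.52, 7.33 and 7.41 in KO_male and 6.74, 6.90 and 6.85 in KO_female. The KO_female arrays stood apart from the other 9, and the KO_male arrays lay just below the WT_male range. Over both sexes Opalin fell by 0.45 (SE 0.06; limma adjusted p = 0.037), to 73.2% of wild type. In females it fell by 0.72 (SE 0.08; limma adjusted p = 0.0144), to 60.8% of WT_female. In males the difference was -0.19 (SE 0.08; limma adjusted p = 0.91) and did not pass. Of the 12 fits that each left out 1 array, 3 kept the call over both sexes, those without replicate 1 of KO_male and without replicates 1 or 3 of WT_female, and the other 9 lost it. Over the 12 fits the limma adjusted p ran from 0.0396 to 0.158. The difference stayed between -0.48 and -0.41. The call in females was lost without WT_female replicate 1 or 2 or KO_female replicate 1 or 3 (limma adjusted p up to 0.0998), and in a fit to the 6 female arrays alone (0.175).

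Opalin also differed between the knockouts. It was lower in KO_female than in KO_male, with a difference of -0.59 (SE 0.08; limma adjusted p = 0.0377), where 0.0496% of all genes were called. WT_female and WT_male differed by -0.05 (SE 0.08; limma adjusted p = 0.962). The call between the knockouts held without WT_female replicate 1 or WT_female replicate 3 and was lost without any 1 of the other 10 arrays (limma adjusted p up to 0.22), with differences from -0.63 to -0.54. It was also lost with arrays centred on their medians (limma adjusted p = 0.0525).

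Mal is a membrane-spanning proteolipid of lipid-rich membrane with a part in the sorting of myelin proteins. Mal had log2 intensities of 9.19, 9.48 and 9.56 in WT_male and 9.42, 9.43 and 9.43 in WT_female, against 9.35, 9.11 and 9.22 in KO_male and 8.88, 8.89 and 8.93 in KO_female. The WT_female arrays lay close together, as did the KO_female arrays, and KO_female was below all 9 other arrays. The difference was -0.36 (SE 0.06; limma adjusted p = 0.154) over both sexes, -0.53 (SE 0.09; limma adjusted p = 0.124) in females and -0.19 (SE 0.09; limma adjusted p = 0.918) in males, none of them past the threshold. Over both sexes Mal did pass without WT_male replicate 1, the lowest WT_male array (limma adjusted p = 0.0309), among genes above the median brightness (0.0331) and with an intensity trend in the variance (0.0189). In females it passed under the same settings (limma adjusted p = 0.0333, 0.0223 and 0.012).

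Cldn11 encodes claudin-11, the protein of the tight junction strands of the sheath. Cldn11 had log2 intensities of 9.97, 9.99 and 10.31 in WT_male and 10.12, 10.08 and 10.10 in WT_female, against 10.01, 9.84 and 10.01 in KO_male and 9.61, 9.80 and 9.63 in KO_female. The WT_female arrays were close together, 1 WT_male array was high, and KO_female again lay below all 9 others. The difference was -0.28 (SE 0.07; limma adjusted p = 0.267) over both sexes, -0.42 (SE 0.09) in females and -0.14 (SE 0.09) in males, and none passed.

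Mbp and Mobp are small basic proteins on the cytoplasmic faces of compact myelin, and Mbp is needed for compaction. Mbp had log2 intensities of 9.69, 9.84 and 9.71 in WT_male and 9.94, 9.69 and 9.86 in WT_female, against 9.71, 9.42 and 9.70 in KO_male and 9.49, 9.52 and 9.66 in KO_female. The highest KO_female array lay just below the lowest WT_female array, and the males overlapped. Mbp differed by -0.27 (SE 0.09; limma adjusted p = 0.479) in females, by -0.14 (SE 0.09) in males and by -0.21 (SE 0.07; limma adjusted p = 0.422) over both sexes. Mobp had log2 intensities of 10.05, 10.18 and 10.17 in WT_male and 10.34, 10.21 and 10.20 in WT_female, against 10.27, 9.95 and 10.20 in KO_male and 9.86, 9.76 and 10.01 in KO_female. The KO_male arrays lay outside the narrow WT_male range, 2 above and 1 below, while KO_female stood below both wild-type groups. In males the difference of Mobp was 0.01 (SE 0.09; 95% interval -0.19 to 0.21), with a sign that turned under 5 of the alternatives. It was -0.38 (SE 0.09; limma adjusted p = 0.337) in females and -0.18 (SE 0.07; limma adjusted p = 0.462) over both sexes.

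Mag and Mog stand at opposite faces of the sheath. Mag is a sialic-acid-binding adhesion protein on the membrane next to the axon, and Mog an immunoglobulin-like protein of the outermost layer. Mag had log2 intensities of 9.49, 9.61 and 9.60 in WT_male and 9.82, 9.58 and 9.62 in WT_female, against 9.69, 9.12 and 9.55 in KO_male and 9.39, 9.17 and 9.38 in KO_female. KO_female was below WT_female without overlap, while the KO_male arrays spread on both sides of the WT_male range. The difference of Mag was -0.24 (SE 0.09; limma adjusted p = 0.494) over both sexes, -0.36 (SE 0.13) in females and -0.11 (SE 0.13) in males. Mog had log2 intensities of 9.14, 9.43 and 9.37 in WT_male and 9.34, 9.28 and 9.22 in WT_female, against 9.28, 8.71 and 9.19 in KO_male and 8.91, 8.75 and 8.82 in KO_female. KO_male replicate 2 was lower than every KO_female array, and the other KO_male arrays lay within the WT_male range. The difference of Mog was -0.35 (SE 0.09; limma adjusted p = 0.316) over both sexes, -0.45 (SE 0.13) in females and -0.25 (SE 0.13) in males.

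Cnp and Ermn are proteins of the parts of the sheath that keep cytoplasm. Cnp is a cyclic nucleotide phosphodiesterase that keeps cytoplasmic channels open, and Ermn, ermin, binds the actin cytoskeleton. Cnp had log2 intensities of 9.11, 9.09 and 9.15 in WT_male and 9.17, 9.04 and 9.09 in WT_female, against 9.17, 9.04 and 9.05 in KO_male and 8.92, 8.85 and 8.90 in KO_female. The WT_male, WT_female and KO_male arrays shared 1 range and the 3 KO_female arrays lay below it. Cnp had the smallest difference of the 9 over both sexes, at -0.12 (SE 0.04; limma adjusted p = 0.462), with -0.21 (SE 0.06) in females and -0.03 (SE 0.06) in males. Ermn had log2 intensities of 9.05, 9.49 and 9.43 in WT_male and 9.33, 9.25 and 9.19 in WT_female, against 9.29, 8.58 and 9.08 in KO_male and 8.92, 8.77 and 9.10 in KO_female. Replicate 2 of KO_male was the lowest of all 12 arrays, and Ermn had the largest SD of the 9 genes in that group, 0.36 (n = 3). Its differences in females and males were close, at -0.32 (SE 0.17) and -0.34 (SE 0.17), with -0.33 (SE 0.12; limma adjusted p = 0.466) over both. The difference between these effects, females minus males, was 0.01 (SE 0.24; 95% interval -0.50 to 0.53).

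**Figure D2:**
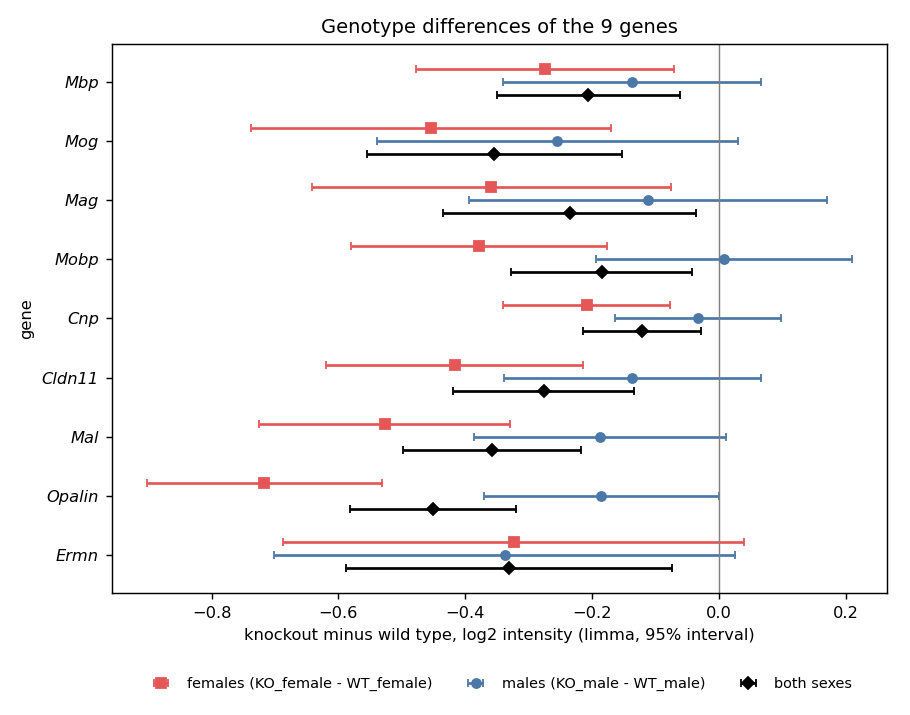
Knockout minus wild type in log2 intensity (horizontal axis) for the 9 genes (vertical axis), with limma's 95% interval, in females (squares), males (circles) and both sexes (diamonds). The interval lay below 0 for all 9 genes over both sexes, for 8 in females and for 0 in males; these intervals are not adjusted for the number of genes.

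The effect of genotype was more negative in females than in males for 8 of the 9 genes, as for 47.8% of all genes, but none of the 9 passed the test of that difference. The differences of the effects, females minus males, had a median of -0.25. Opalin had the largest, -0.53 (SE 0.12; unadjusted p = 0.00087; limma adjusted p = 0.772), followed by Mobp at -0.39 (SE 0.13; unadjusted p = 0.0125; limma adjusted p = 0.99) and Mal at -0.34 (SE 0.13; unadjusted p = 0.0217; limma adjusted p = 0.997). These were the 3 of 9 that were lower at an unadjusted p under 0.05, a level that 2.28% of all genes reached in that direction. Limma called 0 of 22180 genes for this difference (0% of genes), with 1070 at an unadjusted p under 0.05 in either direction (4.82%). For Opalin the adjusted p ran from 0.383 to 1 over the alternatives. The median and the count rested on single arrays of KO_male. Without KO_male replicate 1 the median was -0.13 with 2 of 9 lower at an unadjusted p under 0.05 (2.36% of all genes), and without KO_male replicate 2 it was -0.38 with 7 of 9 (2.57%). Limma called 0 of the 9 in either fit.

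Within the wild type, the 9 genes showed no common direction between the sexes. In WT_female 4 were lower and 5 higher than in WT_male, from -0.07 to 0.12, where 53.5% of all genes were lower. None was called by limma (adjusted p from 0.947 to 0.996, with 0.0225% of all genes called), 0 of 9 reached an unadjusted p under 0.05 (2.52% of all genes were lower at that level), and for 0 of 9 did the WT_female arrays all lie below the WT_male arrays (6.19% of all genes). Within the knockout all 9 were lower in females, from -0.05 in Ermn to -0.59 in Opalin, where 50% of all genes were lower. Opalin passed, and 5 of 9 were lower at an unadjusted p under 0.05, against 3.42% of all genes, namely Opalin, Mal, Cnp, Cldn11 and Mobp. For Opalin, Mal, Cnp and Cldn11 all KO_female arrays lay below all KO_male arrays, as for 6.4% of all genes, and below all 9 other arrays, as for 1.49%. Averaged over the genotypes 8 of 9 were lower in females (51.3% of all genes), 3 of them at an unadjusted p under 0.05 (4.18%), and 0 were called by limma (0.0361% of all genes).

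The group means of 8 genes were ordered with both wild-type groups highest, then KO_male, then KO_female. WT_female came first for Mbp, Mag, Cldn11 and Mal, and WT_male for Mog, Cnp, Opalin and Ermn. For Mobp the order was WT_female, KO_male, WT_male and KO_female. Neither the wild-type groups nor KO_male and WT_male were shown to differ from each other for any of the 9. Between the knockouts limma called Opalin alone, a call kept in 2 of the 12 fits that left out 1 array.

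One array carried much of the difference in males. KO_male replicate 2 was the lowest KO_male array for all 9 genes, with deviations from the WT_male mean of -0.74 to -0.08 and a median of -0.30. KO_male replicate 1 had a median deviation of -0.03 and was lower than that mean for 6 of 9 genes, and KO_male replicate 3 had a median of -0.08 and was lower for 8. Without KO_male replicate 2 the median difference in males was -0.08 with 7 of 9 lower, and Mag (0.06) and Mobp (0.10) were above 0. Ermn then differed by -0.14 and Mog by -0.08. Without KO_male replicate 1 instead, the median in males was -0.23, 4 of 9 were lower at an unadjusted p under 0.05 (3.39% of all genes), and limma called 0 of the 9. Without KO_male replicate 2, all 9 were still lower over both sexes, with a median of -0.23, and Opalin was not called (limma adjusted p = 0.124). The 3 KO_female arrays had median deviations of -0.37, -0.50 and -0.29 from the WT_female mean, and each was lower for all 9 genes.

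**Figure D3:**
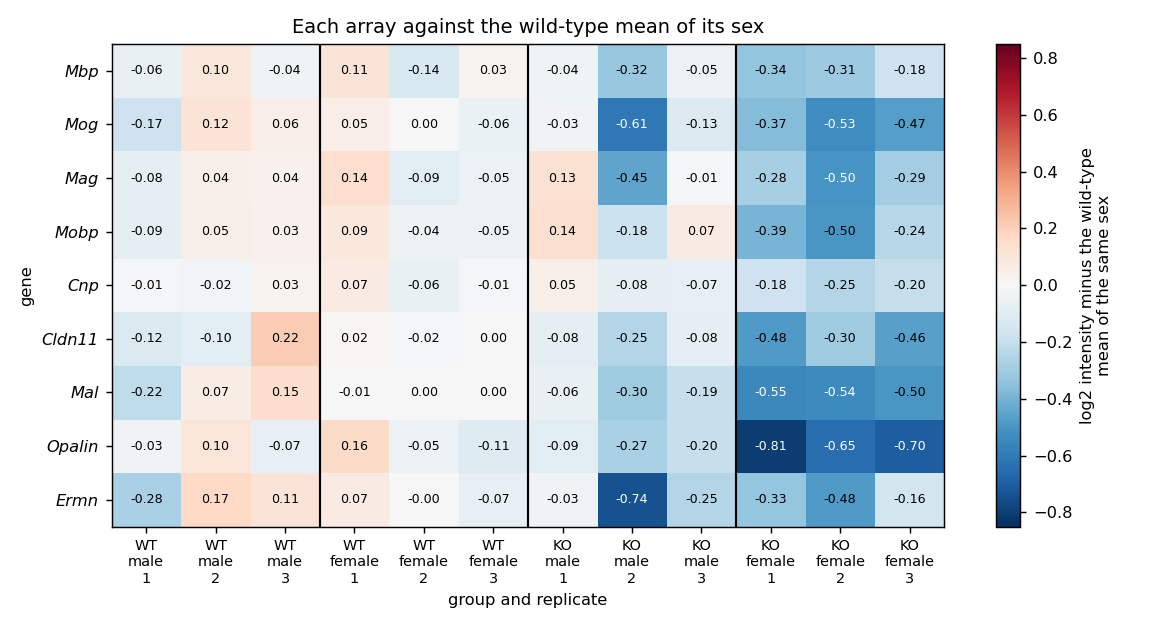
Log2 intensity of each gene (rows) on each array (columns) minus the wild-type mean of the same sex, shown as colour and number. The 3 KO_female columns and KO_male replicate 2 were below 0 for all 9 genes, and Opalin on the KO_female arrays ran from -0.81 to -0.65.

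Opalin, which had the largest difference of the 9, was also set against the other 8 as a description, with no test. Its log2 intensity minus the mean of the other 8 on the same array was -2.42 ± 0.11 (SD, n = 3) in KO_female. It was -2.02 ± 0.11 (SD, n = 3) in KO_male, -2.07 ± 0.09 (SD, n = 3) in WT_female and -1.99 ± 0.13 (SD, n = 3) in WT_male. The KO_female arrays, at -2.51 to -2.29, did not overlap the other 9, at -2.15 to -1.89. On KO_male replicate 2 it was -1.89. Since Opalin was singled out for its size, this separation restates its larger difference in females and adds no support. The level of this value compares different probes and is not read, only its change between arrays.

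The 9 genes varied together between arrays. Over the 12 arrays all 36 pairs had a positive Pearson correlation, with a median r of 0.81 and a range from 0.61 (Opalin and Ermn) to 0.93 (Cldn11 and Mal). With each group's mean subtracted, which leaves the spread among mice of 1 group, the median was 0.57 and all 36 pairs were again above 0. The highest pairs were then Mobp and Ermn (0.94) and Mog and Ermn (0.93), and the lowest was Cldn11 and Opalin (0.11). Cldn11 had the lowest median r with the other 8, 0.28, and Ermn the highest, 0.79. Without KO_male replicate 2, an omission chosen after its values were seen, the median was 0.42, 32 of 36 pairs were above 0, and the median of Cldn11 was 0.03. These are descriptions over arrays that share a normalization, and they carry no test.

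**Figure D4:**
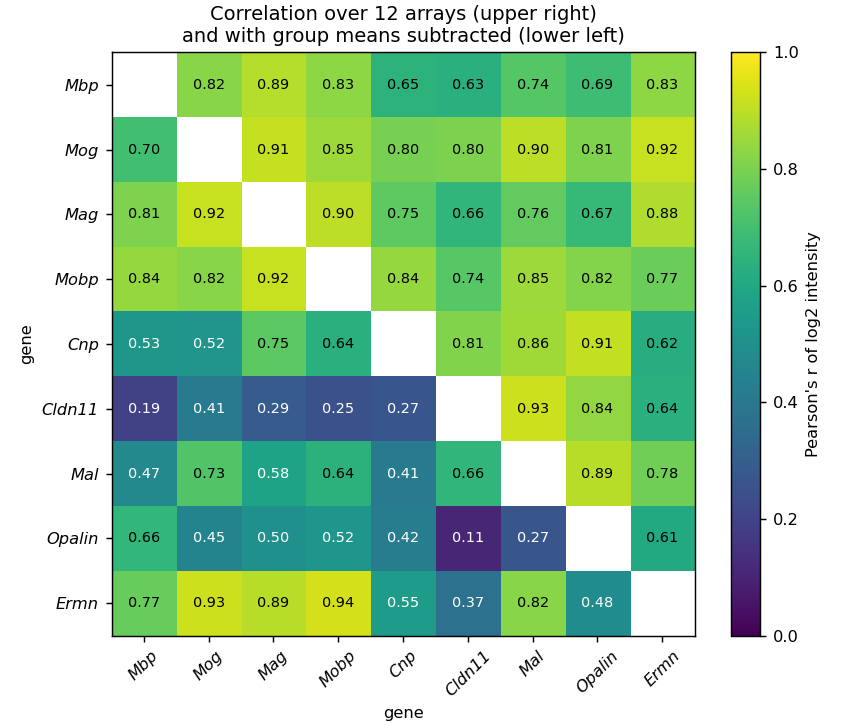
Pearson's r of log2 intensity between each pair of the 9 genes (rows and columns), over the 12 arrays (upper right) and after subtracting the mean of each group (lower left). The upper part ran from 0.61 to 0.93 and the lower part from 0.11 to 0.94, with the lowest values at Cldn11.

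Among named genes above the median brightness and outside the 9, the 10 closest to the mean profile of the 9 over the 12 arrays had r from 0.90 to 0.96, where the median r over all genes was 0.0031. They were Tmem88b (r = 0.96), Aspa (0.96), Ppip5k2 (0.95), Fth1 (0.95), Gatm (0.95), Tmem63a (0.93), Nkain2 (0.92), Insig1 (0.92), Kif1b (0.90) and Plekhh1 (0.90). Aspa breaks down N-acetylaspartate, Fth1 is the heavy chain of the iron store ferritin, Gatm makes the precursor of creatine, Insig1 is a membrane protein that restrains sterol synthesis, and Kif1b is a kinesin motor. Their differences over both sexes ran from -0.34 (Nkain2) to -0.09 (Kif1b), and 0 of 10 were called by limma, with the lowest adjusted p at 0.316. With group means subtracted their r ran from 0.72 (Kif1b) to 0.97 (Aspa). The 10 were picked for their r over the 12 arrays, so its size and the direction of their differences follow largely from that choice.

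The medians of the other oligodendrocyte lists were nearer to 0 than that of the 9, a gap that was not tested, and limma called 0 genes in each of the following lists over both sexes. To set beside their counts, 50.4% of all genes were lower over both sexes. At an unadjusted p under 0.05, 4.87% of all genes were lower and 4.38% higher. Of 37 other myelin and mature oligodendrocyte genes tested, 29 were lower, with a median of -0.11, and 13 were lower and 0 higher at an unadjusted p under 0.05. The 3 smallest p-values in this list belonged to Il33 (-0.36), a nuclear cytokine, Tmem88b (-0.31) and Efnb3 (-0.21), a membrane-bound ephrin. The median was -0.07 in males and -0.14 in females.

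Enzymes of myelin lipids and glial gap junction proteins had a median of -0.11, with 11 of 12 lower, 7 of them at an unadjusted p under 0.05. Carbonic anhydrase Car2, which the list also holds, differed by -0.19, the fatty acid elongase Elovl7 by -0.16 and Ugt8a, which makes galactocerebroside, by -0.28. The medians of this list in males (-0.12) and females (-0.10) were close. Its genotype effects in females minus those in males had a median of 0.02, where the 9 structural genes had -0.25.

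Transcription factors of the lineage had a median of -0.11, with 7 of 12 lower. The 4 at an unadjusted p under 0.05 were Sox8 (-0.23), Myrf (-0.22), Sox10 (-0.22) and Nkx6-2 (-0.18). Precursor and premyelinating markers had a median of -0.0046, with 6 of 12 lower and 6 higher. Enpp6 (-0.20), Xylt1 (-0.15) and Lhfpl3 (-0.13) were lower at an unadjusted p under 0.05, while Pdgfra, the growth factor receptor of precursors, differed by 0.01. Cholesterol synthesis enzymes, which supply a main lipid of myelin, had a median of -0.05, with 11 of 17 lower. In that list Ebp (0.16), Insig1 (-0.16) and Hsd17b7 (-0.13) had the smallest p-values, and 4 were lower and 1 higher at an unadjusted p under 0.05. Insig1, which the list also holds, restrains sterol synthesis and is not one of its enzymes.

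**Figure D5:**
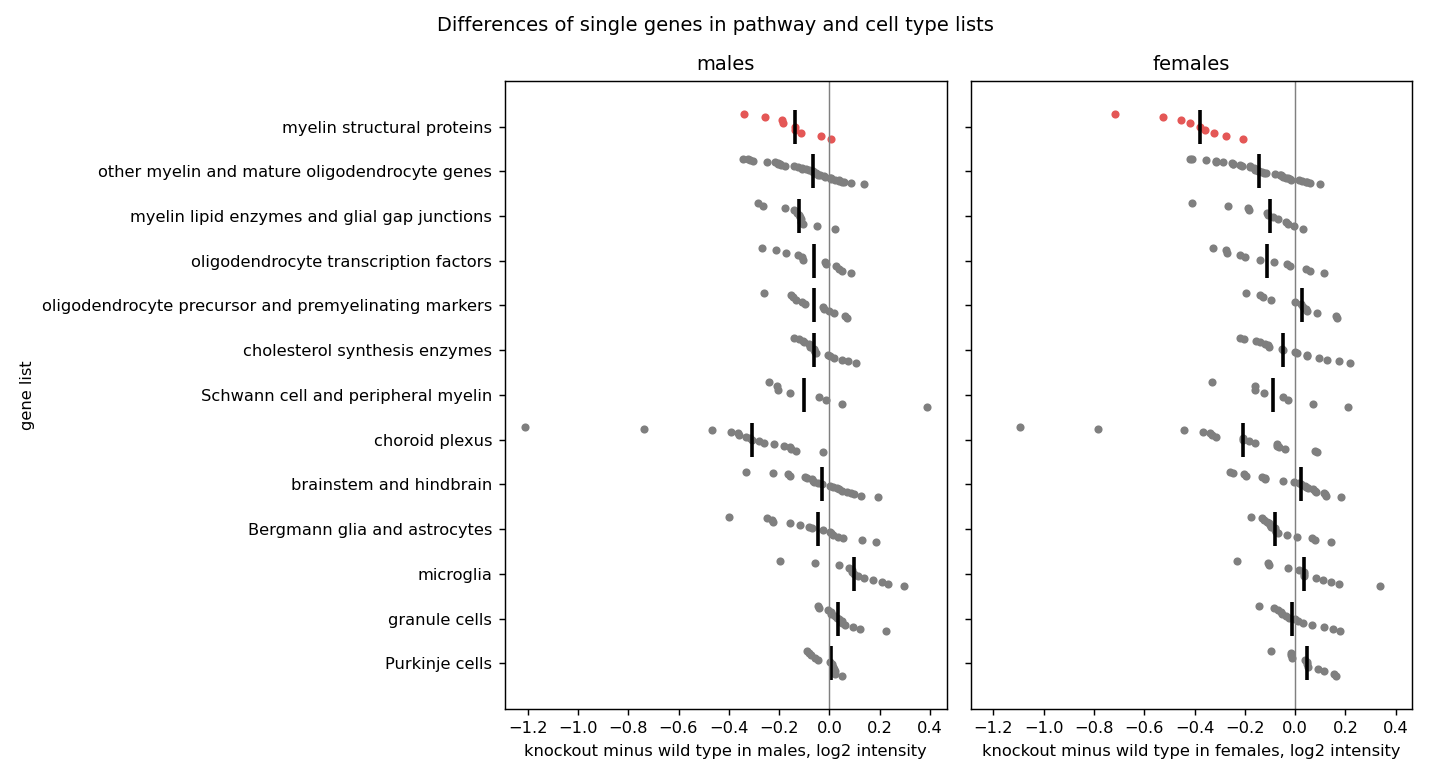
Knockout minus wild type in log2 intensity (horizontal axes) for each gene (points) of 13 lists (vertical axis), in males and in females; black bars are list medians and the 9 structural genes are red. Their median was -0.14 in males and -0.38 in females, and the choroid plexus list had medians of -0.31 and -0.21.

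The tissue label was checked against markers. The granule cell genes Gabra6, Cbln1 and Cbln3 and the Purkinje cell genes Calb1 and Car8 were each brighter than at least 99.6% of genes on average. Granule cell markers differed over both sexes by a median of 0.02 (9 of 14 higher), Purkinje cell markers by 0.03 (8 of 12 higher) and microglia markers by 0.05 (10 of 13 higher). Bergmann glia and astrocyte markers differed by -0.06 (13 of 16 lower), and markers of Schwann cells, which myelinate peripheral nerve, by -0.09 (7 of 8 lower). Limma called 0 genes in these lists over both sexes, and 50.4% of all genes were lower.

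Choroid plexus markers varied widely within each group. All 17 had lower means in the knockout over both sexes, with a median of -0.25, where 50.4% of all genes were lower. Of the 17, 2 were lower at an unadjusted p under 0.05 (4.87% of all genes), and limma called 0 (lowest adjusted p = 0.517). Without 1 array this median ran from -0.32 to -0.12, in males from -0.44 to -0.043 and in females from -0.40 to -0.020. Their mean log2 level ran from 7.28 to 8.17 in WT_male, 7.04 to 8.04 in WT_female, 6.997 to 7.67 in KO_male and 6.88 to 7.84 in KO_female. In each group the array with the highest choroid plexus level had the lowest mean of the 9 structural genes. These arrays were WT_male replicate 1 and replicate 2 of WT_female, KO_male and KO_female. In WT_female the margin was narrow, at 9.34 against 9.35 on replicate 3. This is a description with no test. With the choroid plexus level as a covariate all 9 structural genes were lower over both sexes, with a median of -0.33, and Opalin was not called (difference -0.47; limma adjusted p = 0.0817). In males the median was then -0.21, and 6 of 9 were lower at an unadjusted p under 0.05, against 3.29% of all genes in that fit and 0 of 9 without the covariate, but limma called 0 of the 9.

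Markers of brainstem and hindbrain, where myelin is dense, differed by a median of -0.00057 (11 of 21 lower, against 50.4% of all genes). Their mean log2 level ran from 5.67 to 5.74 in WT_male, 5.70 to 5.73 in WT_female, 5.63 to 5.72 in KO_male and 5.66 to 5.73 in KO_female. With that level as a covariate the median of the 9 was -0.27, all 9 were lower, and Opalin was not called (difference -0.44; limma adjusted p = 0.168). The brainstem list was dim, as even a mean log2 of 6.30 was at or above that of only 37.2% of genes. A list this dim says little about brainstem tissue in the samples. Among genes above the median brightness the median of the list was -0.14. On KO_male replicate 2 the Purkinje marker level was 10.34, above the 10.13 to 10.27 of the other 11 arrays. Its choroid plexus level of 7.67 was the highest of KO_male, against 6.997 and 7.05. Its microglia level of 7.83 was the highest of the 12, just above 7.81 on WT_female replicate 1 and KO_female replicate 1. The granule cell level of that array, 10.65, was the lowest of the 12, just below 10.66 on KO_female replicate 3. The part of these markers in the low myelin values of that array was not tested.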

How the data were processed

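Total RNA of cerebellum from 12 mice was measured on Affymetrix whole-transcript arrays. Per the labels, the authors deposited RMA values over core exons, made with Affymetrix Expression Console. They are an intensity on a linear scale, judged from the deposited values. Transcriptome Analysis Console 3.0 is also named in the submitters' processing notes. The build of the array annotation is not given in the sources used here, so coordinates are those of the RefSeq promoter table only. RMA scales all arrays to 1 distribution, so a change common to most genes would not be seen. From the deposited values, log2 was taken with no offset.

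The table had 41345 rows, of which 23521 carried 1 gene symbol in GEO's platform annotation, 1814 several and 16010 none. The brightest row was kept for each of 1082 genes with several rows, which left 22180 genes, with no filter on dim ones. A mean per group was fitted with limma 3.58.1 in R 4.3.3. The code was tested on simulated data. Groups came from the source names. The 3 arrays per group limit the precision.

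The 9 genes, the lists and the tests were chosen with earlier results of these data known, so no count over them is independent support. Named genes were the 9, Ciz1, the 3 genes with the smallest p in each list, and the 10 genes most like the 9 (mean log2 above the median, no predicted symbol). Lists of other cell types are given as counts only. Nkx6-2, Pdgfra and the markers of the tissue check were named after their values were seen. Alternatives were the mean of all rows of a gene, genes above the median brightness, centred arrays, quantile normalization, an offset of 16, an intensity trend, robust eBayes, array weights, an additive model, fits to 1 sex, 2 marker covariates and leaving out each array.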

Additional observations from a re-analysis of the deposited data

How the results depend on the processing

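All 9 genes were lower over both sexes and in females under each of the 23 alternatives, with medians from -0.33 to -0.23 and from -0.43 to -0.32. In males at least 7 were lower, with medians from -0.23 to -0.08. Of the 9, 1 was called over both sexes and in females, 2 among genes above the median brightness or with an intensity trend, and over both sexes 0 with centred arrays (Opalin, limma adjusted p = 0.0574), the additive model (0.253) or either marker covariate. In females 0 were called in the fit to 1 sex. Between the knockouts 0 were called with centred arrays or either covariate. Over both genotypes 1 was called for sex among brighter genes (Opalin, limma adjusted p = 0.0466) in place of 0. Leaving out 1 array gave 0 to 1 called over both sexes, 0 to 2 in females and 0 to 1 between the knockouts.

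Over all genes, 5 were called for genotype, against 14 among brighter genes, 18 with the trend, 3 with the additive model, 3 with the choroid plexus covariate and 3 to 8 without 1 array. In males 5 became 2 in the fit to 1 sex and 2 to 4 without 1 array. In females 5 became 16 among brighter genes, 8 with the offset, 26 with the trend and 3 to 7 without 1 array. For the difference between sexes 0 became 2, 1 and 2 under the same settings and 0 to 1 without 1 array. For sex 8 became 13 among brighter genes and 15 with the trend. For sex in wild type 5 became 3 among brighter genes and 3 to 5 without 1 array. For sex in the knockout 11 became 17 among brighter genes, 17 with the offset, 18 with the trend and 6 to 12 without 1 array. The median of precursor markers was -0.035 with the choroid plexus covariate, -0.039 with the brainstem covariate and -0.033 to 0.0021 without 1 array. That of brainstem markers was -0.14 among brighter genes and -0.058 to 0.014 without 1 array. Without 1 array the other medians over both sexes ran from 0.0022 to 0.044 for Purkinje cells, 0.0087 to 0.051 for granule cells, 0.026 to 0.090 for microglia, -0.076 to -0.045 for Bergmann glia and astrocytes, -0.11 to -0.067 for Schwann cells, -0.066 to -0.022 for cholesterol enzymes, -0.13 to -0.069 for other myelin genes, -0.12 to -0.097 for lipid enzymes and -0.14 to -0.071 for transcription factors. In males the median of other myelin genes ran from -0.10 to -0.033.

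Signs turned only for differences that were not called on either side. In males Mobp was -0.059 with the choroid plexus covariate, -0.0041 with the brainstem covariate and -0.056 to 0.10 without 1 array, and Mag was -0.23 to 0.057. The difference between sexes in Ermn was -0.027 with array weights and -0.19 to 0.17 without 1 array. For sex over both genotypes Mag was 0.0064 with quantile normalization and -0.099 to 0.046 without 1 array, Mbp -0.031 to 0.050 and Ermn -0.16 to 0.018. In wild type Cnp was 0.0068 with quantile normalization and -0.054 to 0.013 without 1 array, Cldn11 -0.051 to 0.12, Mal -0.093 to 0.093, Mog -0.12 to 0.027 and Ermn -0.20 to 0.018. In the knockout Ermn was -0.25 to 0.10. Fewer arrays or genes tested enter some of these fits by construction, and otherwise the cause of the changes was not tested. No paired analysis was possible because the replicate numbers only name arrays and the labels pair no mice. As single groups had 3 arrays, the p-values set each difference against a spread among mice estimated over the 4 groups together. That estimate also draws on all genes tested.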
